A study of Mus musculus with 24 samples.

Results

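The 10 genes described here are the core genes of the circadian clock and their best-known output: *Arntl*, *Clock*, *Per1*, *Per2*, *Per3*, *Cry1*, *Cry2*, *Nr1d1*, *Nr1d2* and *Dbp*. They were chosen by symbol, with earlier results of these data known. Each matched 1 of the 15456 genes in the table, and all 10 passed the minimum mean level of 10 that left 14974 genes for testing. RNA was sequenced from the medial prefrontal cortex (mPFC) of 24 BALB/C mice, 11 weeks old, in 4 groups of 6. All mice were males of the OlaHsd substrain kept on a reversed cycle with 12 h of light. Control mice received PBS, the duloxetine group was injected daily with duloxetine at 10 mg/kg, the *R. flavefaciens* group received that gut bacterium (*Ruminococcus flavefaciens*) by gavage, and the combined group received both agents. Treatment lasted at least 21 days and was followed by behavioral tests, and the tissue was punched from the brain after decapitation. The hour of death of each mouse and its order over the groups are not given in the sources used here. Levels of most clock genes depend on the hour, and its part in the differences between groups was not tested. Duloxetine is an antidepressant and an inhibitor of serotonin and norepinephrine reuptake. Mice are named here by group and by the number pair in their labels, such as mouse 10_2.

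The circadian clock is a transcriptional feedback loop that runs in nearly every cell. The proteins of *Arntl* (also called Bmal1) and *Clock* bind E-box sequences and switch on the *Per* and *Cry* genes, whose proteins return to the nucleus and shut this activity off. A second loop is made by *Nr1d1* and *Nr1d2* (Rev-erb alpha and beta), repressors that bind ROR elements and hold *Arntl* down, and *Dbp* is a transcription factor of the PAR bZIP family that is switched on by the same activators and binds D-boxes. In the cortex the levels of most of these genes go up and down over the day, with *Arntl* roughly opposite to *Dbp* and *Nr1d1*, and *Per1* and *Per2* can also be induced by neuronal activity and by glucocorticoids.

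The control sequences of the loop were looked for in RefSeq promoters of build GRCm38.p6, each covering 250 bases before to 50 bases after a start site, which were at hand for 9 of the 10 genes with 13 start sites. The letters searched on both strands were the E-box CACGTG, held by 7.15% of 32851 promoters, the D-box TTATGTAA (0.938%), the cyclic AMP response element TGACGTCA (1.79%) and the ROR core AGGTCA (16.3%). Counted per gene, the shares of 27025 genes were 8.09%, 1.11%, 2.03% and 18.1% in the same order. An E-box stood 60 bases before the start of *Cry1* and 166 bases before start site 1 of *Per1*, and no matches overlapped each other. *Per3* held 2 D-boxes, at 205 and 158 bases before its start. The ROR core occurred in 4 genes, *Arntl* (start site 2), *Clock* (start site 3), *Per1* (start site 1) and *Nr1d2*, and none of the 4 sequences was found in this window of *Cry2*, *Nr1d1* or *Dbp*. The promoters with an E-box or D-box are shown because they carry the sites by which the loop is known to act on its own genes, with the matches in capitals (in *Per1* the E-box comes first and the ROR core, on the opposite strand, second).
Cry1, chr10:85185005-85185304, minus strand: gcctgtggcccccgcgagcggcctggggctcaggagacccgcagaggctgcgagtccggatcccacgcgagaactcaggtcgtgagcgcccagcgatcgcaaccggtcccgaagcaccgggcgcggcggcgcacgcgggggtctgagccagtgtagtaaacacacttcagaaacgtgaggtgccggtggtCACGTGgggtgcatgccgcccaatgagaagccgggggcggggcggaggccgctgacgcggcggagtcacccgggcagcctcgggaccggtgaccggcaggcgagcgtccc
Per1, chr11:69098699-69098998, plus strand: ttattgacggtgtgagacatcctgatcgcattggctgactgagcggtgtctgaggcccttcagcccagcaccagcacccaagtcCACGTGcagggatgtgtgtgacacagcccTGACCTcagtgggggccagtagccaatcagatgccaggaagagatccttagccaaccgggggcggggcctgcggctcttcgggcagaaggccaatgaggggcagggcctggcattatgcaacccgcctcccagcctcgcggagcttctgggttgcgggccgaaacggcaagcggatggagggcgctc
Per3, chr4:151044616-151044915, minus strand: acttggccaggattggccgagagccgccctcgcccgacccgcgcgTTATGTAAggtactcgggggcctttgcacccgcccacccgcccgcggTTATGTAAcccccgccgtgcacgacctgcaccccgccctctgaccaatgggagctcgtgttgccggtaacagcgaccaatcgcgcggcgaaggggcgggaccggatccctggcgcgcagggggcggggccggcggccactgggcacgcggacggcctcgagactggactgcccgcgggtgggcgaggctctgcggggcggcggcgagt

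Values are normalized counts, that is, reads per gene divided by a size factor for each library. Dividing out the factor gave whole reads for 99.989% of 370875 values above 0, with 12811413 to 15607343 reads per mouse in genes (median 14455107). Median depth was 13591497 reads in controls, 14536037 in the duloxetine group, 13943370 in the *R. flavefaciens* group and 14621655 in the combined group, so that the mice given duloxetine were sequenced slightly deeper before normalization. Per kilobase of exon, the control means were highest for *Cry2* (377 ± 18.7 normalized counts per kb, SD, n = 6), followed by *Nr1d1* (309), *Nr1d2* (303), *Per1* (296), *Dbp* (223), *Per2* (172), *Clock* (127), *Cry1* (99.0 ± 8.59), *Per3* (75.6) and *Arntl* (60.8 ± 2.42). The ranges of the 6 control mice overlapped between neighbors in this order from *Cry2* down to *Per2* and did not overlap between neighbors from *Per2* down to *Arntl*. With the length of the longest transcript in place of all exons, *Cry2* stayed first, *Dbp* became second and *Cry1* last. Genes overlapping on the genome could share reads, since the libraries do not mark strand and the treatment of shared reads is not given in the sources used here. *Nr1d1* ends within *Thra*, *Dbp* ends within *Sphk2*, both on opposite strands, and *Per3* lies inside *Camta1* on the same strand.

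Both cryptochrome genes, *Nr1d2* and *Dbp* were lower in mice given duloxetine than in mice without it. Over both bacterium arms (12 mice with and 12 without the drug, averaged over *R. flavefaciens*), *Cry1*, *Cry2*, *Nr1d2* and *Dbp* fell, which is 4 of 10 clock genes against 1.03% of all genes tested (limma, adjusted p under 0.05). With 1 mouse left out this count ran from 3 to 5, with a median of 3, and *Nr1d2* was lost in 16 of 24 such fits. At unadjusted p under 0.05, *Per1* and *Per2* were also below the mice without the drug, giving 6 of 10 lower and none higher against 14.9% of all genes. Log2 fold changes had a median of -0.17 over the clock genes and of 0.00 over all genes tested. *Arntl*, *Clock*, *Per3* and *Nr1d1* passed neither threshold, with log2 fold changes between -0.07 and 0.07. In this bulk tissue, fewer cells of a type and less RNA per cell cannot be told apart.

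**Figure D1:**
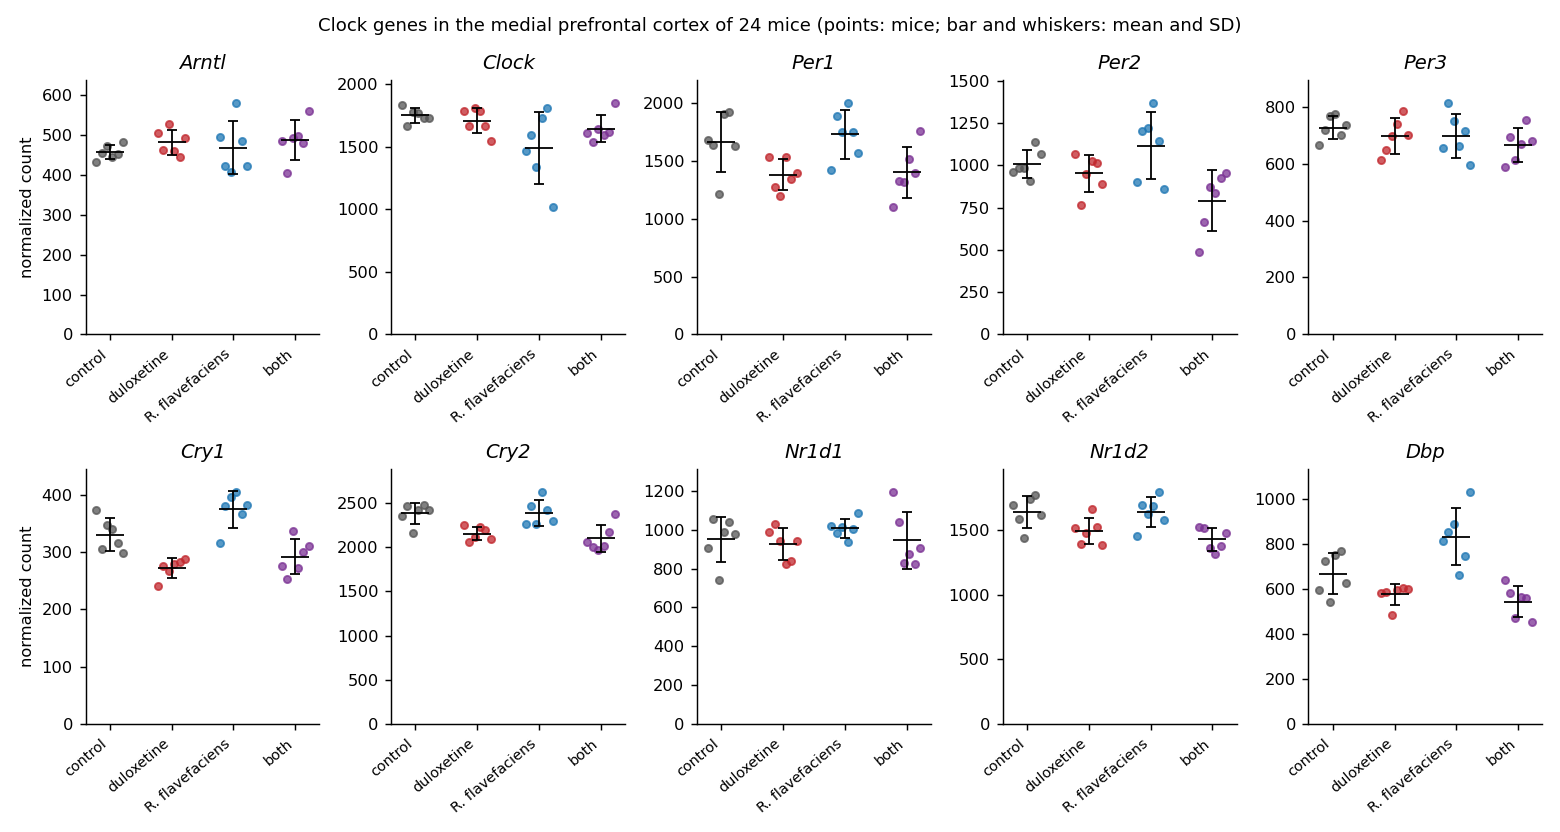
Normalized counts (vertical axes, from 0) of the 10 clock genes in each mouse, with 1 panel per gene and the 4 groups side by side. Bars and whiskers are means and SD of 6 mice; for *Cry1* all duloxetine mice (240 to 288) lie below all control mice (299 to 374), and for *Dbp* all combined mice (451 to 638) lie below all *R. flavefaciens* mice (664 to 1030).

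*Cry1* encodes a cryptochrome, the strongest repressor of the Arntl and Clock proteins. Its lowest, median and highest levels were 299, 329 and 374 normalized counts in controls and 240, 278 and 288 in the duloxetine group. In the *R. flavefaciens* group they were 316, 382 and 405, and in the combined group 254, 288 and 338. Every duloxetine mouse was thus below every control, while the combined and *R. flavefaciens* groups overlapped in 1 mouse each, 11_4 and 7_2. Over both arms *Cry1* fell by 19.9%, a log2 fold change of -0.32 (SE 0.05, adjusted p = 0.0040 by limma, rank 5 of 14974 by p). In the duloxetine group alone against controls the log2 fold change was -0.28 (SE 0.07), with an exact permutation p of 0.00216, the smallest that 6 against 6 mice can give, but an adjusted p of 0.907 by limma. Groups did not overlap in that comparison for 0.334% of genes.

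*Cry2*, the other cryptochrome, is the most abundant of the 10 genes per length. Controls had 2160, 2419 and 2483 normalized counts (lowest, median, highest) and duloxetine mice 2060, 2153 and 2247. *R. flavefaciens* mice had 2262, 2360 and 2624, and combined mice 1965, 2041 and 2375. The duloxetine group reached into the control range because 1 control, 2_2, was low. Over both arms *Cry2* fell by 10.8% (log2 fold change -0.17, SE 0.03, adjusted p = 0.0178 by limma). The spread of *Cry2* within groups was small, with coefficients of variation of 3.57% to 7.26%.

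*Dbp*, the output gene of the list, had the largest fold change of the 10 over both arms and in the combined against the *R. flavefaciens* group. Its lowest, median and highest levels were 542, 675 and 768 normalized counts in controls and 482, 590 and 606 in duloxetine mice. They were 664, 834 and 1030 in *R. flavefaciens* mice and 451, 560 and 638 in combined mice. Controls overlapped with both groups given duloxetine, whereas the combined group lay wholly below the *R. flavefaciens* group. Over both arms *Dbp* fell by 24.7% (log2 fold change -0.41, SE 0.07, adjusted p = 0.0050 by limma, rank 8 by p). *Sphk2*, the sphingosine kinase gene that overlaps the end of *Dbp*, had a log2 fold change of -0.07 (SE 0.04, adjusted p = 0.433 by limma) in the same comparison. Its mean was 371.9 normalized counts in controls, 370.4 in duloxetine mice, 405.6 in *R. flavefaciens* mice and 368.9 in combined mice. Like *Dbp*, it was thus highest in the *R. flavefaciens* group, and the part of shared reads was not tested.

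*Nr1d2*, the Rev-erb beta repressor, had 1438, 1655 and 1768 normalized counts in controls and 1386, 1494 and 1663 in duloxetine mice. It had 1452, 1656 and 1793 in *R. flavefaciens* mice and 1315, 1425 and 1522 in combined mice, so that all groups overlapped. Over both arms it fell by 10.9% (log2 fold change -0.17, SE 0.04, adjusted p = 0.0407 by limma). This call was the least firm of the 4, since it passed in 8 of 24 fits that each left out 1 mouse and not with quantile or 75th percentile scaling, whereas *Cry1*, *Cry2* and *Dbp* passed in all 24. Its paralog *Nr1d1* (Rev-erb alpha) ranged from 739 to 1053 normalized counts in controls, 825 to 1031 in duloxetine mice, 937 to 1087 in *R. flavefaciens* mice and 826 to 1193 in combined mice. Over both arms its log2 fold change was -0.07 (95% interval in the plot of fold changes, adjusted p = 0.642 by limma).

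*Per1* and *Per2* encode the period proteins that bind the cryptochromes. *Per1* had 1218, 1659 and 1926 normalized counts in controls, 1201, 1371 and 1539 in duloxetine mice, 1427, 1751 and 2005 in *R. flavefaciens* mice and 1103, 1363 and 1760 in combined mice. All groups overlapped, and among controls mouse 2_2 was far lower than the other 5. Over both arms its log2 fold change was -0.28 (SE 0.07, adjusted p = 0.0543 by limma). It passed with the first label number as a random block (adjusted p = 0.0368 by limma, with a slightly negative estimated correlation of -0.0451 between mice of the same number), with a minimum mean of 50 (0.0496) and with DESeq2 (0.0156). Of all genes given an adjusted p, 1.7%, 1.51% and 2.16% passed in these fits. All mice with the same first label number belong to the same group, so the block compares no groups within a number. *Per2* had 905, 984 and 1139 normalized counts in controls, 766, 981 and 1065 in duloxetine mice, 859, 1172 and 1369 in *R. flavefaciens* mice and 486, 855 and 956 in combined mice. Over both arms its log2 fold change was -0.30 (SE 0.09, adjusted p = 0.106 by limma). *Per3*, the period gene that the loop needs least, ranged from 588 to 813 normalized counts over all mice (log2 fold change -0.06, adjusted p = 0.584 by limma), and *Camta1*, whose locus surrounds it, had a log2 fold change of 0.00 (SE 0.03).

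The activators passed neither threshold with duloxetine. *Arntl* had a median of 454 normalized counts in controls (433 to 484), 477 in duloxetine mice (445 to 527), 453 in *R. flavefaciens* mice (407 to 581) and 489 in combined mice (406 to 561). *Clock* had medians of 1748, 1723, 1524 and 1615 in the same order. Over both arms the log2 fold change was 0.07 (SE 0.05, adjusted p = 0.585) for *Arntl* and 0.06 (SE 0.06, adjusted p = 0.680) for *Clock*, both by limma. With 1 mouse left out, the value of *Clock* ran from 0.01 to 0.09.

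**Figure D2:**
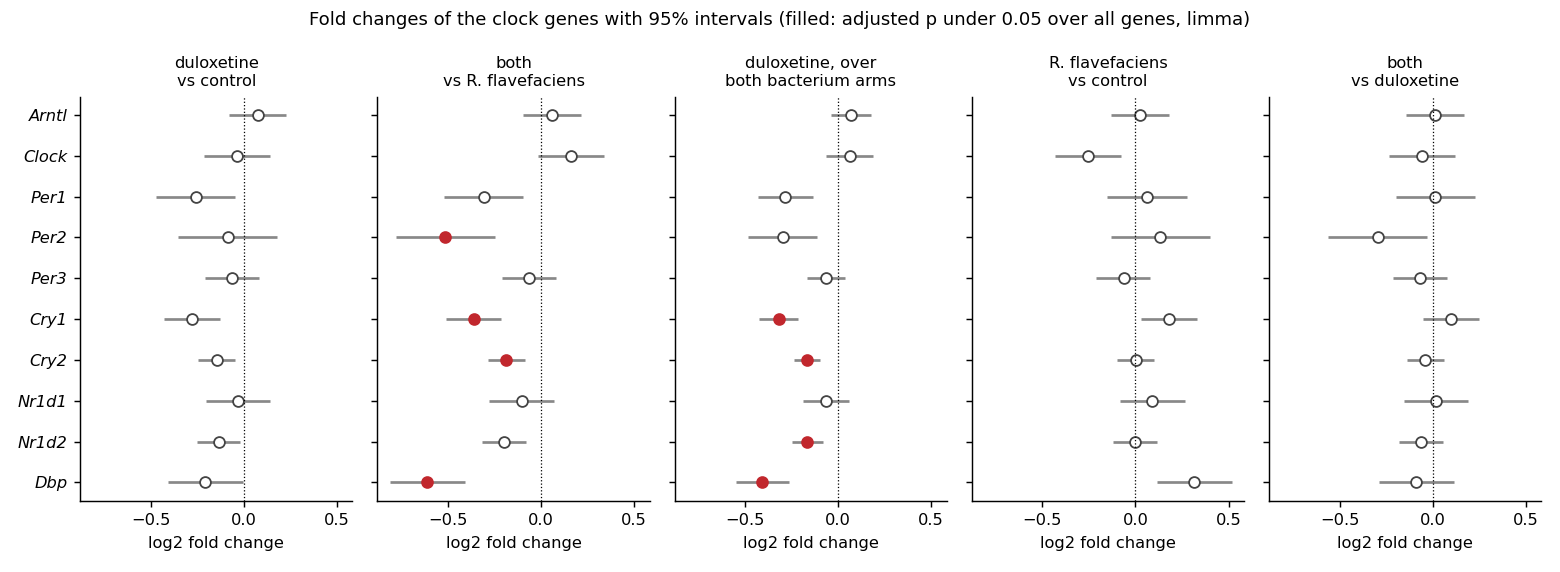
Log2 fold changes (horizontal axes) of the 10 clock genes in 5 comparisons, with 95% intervals from limma, where filled points have an adjusted p under 0.05 over all 14974 genes tested. Filled points occur for *Per2*, *Cry1*, *Cry2* and *Dbp* in the combined against the *R. flavefaciens* group and for *Cry1*, *Cry2*, *Nr1d2* and *Dbp* over both bacterium arms, all on the lower side.

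The drug was also compared within the mice given the bacterium. In the combined against the *R. flavefaciens* group, *Dbp*, *Cry1*, *Per2* and *Cry2* fell, 4 of 10 clock genes against 2.23% of all genes (limma, adjusted p under 0.05), and 6 of 10 were lower at unadjusted p under 0.05 against 19.7%. *Dbp* fell by 34.5% (log2 fold change -0.61, SE 0.10, adjusted p = 0.0062 by limma, rank 3 of all genes). Its groups did not overlap, as was so for 1.44% of genes, and the exact permutation p was 0.00216. *Cry1* fell by 22.2% (log2 fold change -0.36, SE 0.07, adjusted p = 0.0152 by limma). *Per2* fell by 29.9% (log2 fold change -0.51, SE 0.13, adjusted p = 0.0344 by limma), with mouse 10_2 at 486 and mouse 11_3 at 666 lowest in the combined group. *Cry2* fell by 12.1% (log2 fold change -0.19, SE 0.05, adjusted p = 0.0398 by limma). *Nr1d2* (log2 fold change -0.20, adjusted p = 0.0603) and *Per1* (-0.31, adjusted p = 0.104) were lower but did not pass with limma. *Nr1d2* passed with the first label number as a random block (adjusted p = 0.0395 by limma) and with DESeq2 (0.0327), as did 3.56% and 4.07% of all genes. When only the 12 mice of these groups were fitted, none of the 4 calls held, the smallest adjusted p being 0.0615 for *Dbp*, and no gene of the table passed. Leaving out 1 mouse at a time left 1 to 5 clock genes called, with 1 call (*Dbp*) when mouse 11_3 was left out.

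In mice without the bacterium no clock gene passed. The duloxetine group had 0 of 10 clock genes called against controls, as did 0% of all genes (limma), and edgeR and DESeq2 on the recovered reads also called 0 clock genes (0 and 1 of all genes). At unadjusted p under 0.05, 5 of 10 were lower (*Per1*, *Cry1*, *Cry2*, *Nr1d2* and *Dbp*) against 3.83% of all genes. Besides *Cry1* the log2 fold changes were -0.26 (SE 0.10) for *Per1*, -0.14 (SE 0.05) for *Cry2*, -0.14 (SE 0.06) for *Nr1d2* and -0.21 (SE 0.10) for *Dbp*, each with an adjusted p of 1.00 by limma. The count was 2 when control 2_3 or control 3_1 was left out and 3 when duloxetine mouse 5_3 or 5_4 was. Whether the drug difference itself depended on the bacterium was tested by the interaction, in which 0 of 10 clock genes and 0% of all genes passed (limma), with 0 also by edgeR and DESeq2. At unadjusted p under 0.05 the interaction held *Dbp* (-0.40, SE 0.14, adjusted p = 0.639 by limma) and *Per2* (-0.43, SE 0.18, same adjusted p), 2 of 10 against 7.53% of genes. The comparison over both arms uses the same mice as these comparisons and is not a separate measurement.

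With the bacterium alone no clock gene passed in the limma fit. Against controls 0 of 10 passed (limma; 0.0267% of all genes did), with 0 by edgeR (0.0267% of all genes) and 1, *Dbp*, by DESeq2 (5.6% of the 8877 genes to which it gave an adjusted p). At unadjusted p under 0.05, 3 of 10 differed against 19.6% of genes. *Dbp* was higher (log2 fold change 0.32, SE 0.10, adjusted p = 0.0951 by limma), as was *Cry1* (0.18, SE 0.07, adjusted p = 0.170), and *Clock* was lower (-0.25, SE 0.09, adjusted p = 0.118). The *Clock* value leaned on mouse 9_3, which had 1019 normalized counts where the other 5 of its group had 1334 to 1809, and which also had the highest *Dbp* of all 24 mice (1030). Without this mouse the log2 fold change of *Clock* was -0.15. Averaged over duloxetine, the bacterium gave 0 of 10 calls (limma, edgeR and DESeq2; 0.0267% of all genes by limma and by edgeR, 4.51% of the 8006 given an adjusted p by DESeq2) and 2 of 10 at unadjusted p under 0.05 against 18.1% of genes, *Clock* at -0.16 (SE 0.06, -0.10 without mouse 9_3) and *Cry1* at 0.14 (SE 0.05).

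Between the combined group and controls, 0 of 10 clock genes passed with limma against 0.1% of all genes, 0 passed with edgeR against 0.114%, and 2, *Cry2* and *Nr1d2*, passed with DESeq2 against 1.68% of the 12941 genes to which it gave an adjusted p. At unadjusted p under 0.05, 6 of 10 were lower against 16.8% of genes. The log2 fold changes were -0.38 (SE 0.13) for *Per2*, -0.29 (SE 0.10) for *Dbp*, -0.24 (SE 0.10) for *Per1*, -0.20 (SE 0.06) for *Nr1d2*, -0.18 (SE 0.05) for *Cry2* and -0.18 (SE 0.07) for *Cry1*. Between the combined and the duloxetine group 0 of 10 passed by limma, edgeR or DESeq2 (0% of all genes by limma, 0 by edgeR and 1 gene by DESeq2), and only *Per2* had an unadjusted p under 0.05, at -0.30 (SE 0.13), against 5.9% of genes. Without mouse 10_2 the *Per2* value was -0.16 against the duloxetine group and -0.25 against controls.

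Other genes of the loop, its modifiers and its outputs were read from lists, which were chosen with earlier results of these data known. Of 18 further loop and regulator genes in the table, 0 passed with limma in the comparison over both arms, while 5 were lower and none higher at unadjusted p under 0.05 (14.9% of all genes differed), with a median log2 fold change of -0.04. The smallest p values belonged to *Ciart* (-0.31, SE 0.11, adjusted p = 0.146 by limma), a repressor of the Arntl and Clock proteins, and *Bhlhe41* (-0.15, SE 0.05, adjusted p = 0.154), which competes for E-boxes. Of 10 output genes 1 passed, against 1.03% of all genes, where *Tef* fell by 0.17 on the log2 scale (SE 0.03, adjusted p = 0.0130 by limma). *Tef* encodes a PAR bZIP factor like *Dbp*, and had 5458 to 6331 normalized counts in controls, 5310 to 5865 in duloxetine mice, 5700 to 6650 in *R. flavefaciens* mice and 4786 to 5565 in combined mice, the last of these wholly below the *R. flavefaciens* group, as was so for 1.44% of genes. *Hlf*, the remaining PAR bZIP gene, had a log2 fold change of -0.10 (SE 0.05, adjusted p = 0.325 by limma). *Npas2*, which can stand in for *Clock* in the forebrain, had 0.06 (SE 0.05, adjusted p = 0.608).

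Immediate early genes, which neurons switch on within minutes of activity, moved in the same direction. Of 18 such genes 7 fell and none rose over both arms (limma, adjusted p under 0.05), against the same 1.03% of all genes, with a median log2 fold change of -0.42. This list, like the glucocorticoid list below, was chosen with earlier results of these data known. *Npas4*, a neuron-specific activity gene, fell by 1.16 on the log2 scale (SE 0.19, adjusted p = 0.0040 by limma), and *Nr4a1* fell by 0.64 (SE 0.13, adjusted p = 0.0134). The summed level of the 18 genes was 19419 to 32991 normalized counts in controls, 14870 to 20805 in duloxetine mice, 18860 to 34593 in *R. flavefaciens* mice and 10609 to 27599 in combined mice, and its most abundant gene was *Egr1*. The mouse with the lowest sum, 10_2, also had the lowest *Per1* and *Per2*. Glucocorticoid response genes did not pass (0 of 14 over both arms, limma, against 1.03% of all genes), with 4 higher and none lower at unadjusted p under 0.05 (14.9%), led by *Ddit4* (0.40, SE 0.10, adjusted p = 0.0507) and *Nfkbia* (0.37, SE 0.11, adjusted p = 0.108). The part of neuronal activity and of glucocorticoids in the clock gene differences was not tested.

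**Figure D3:**
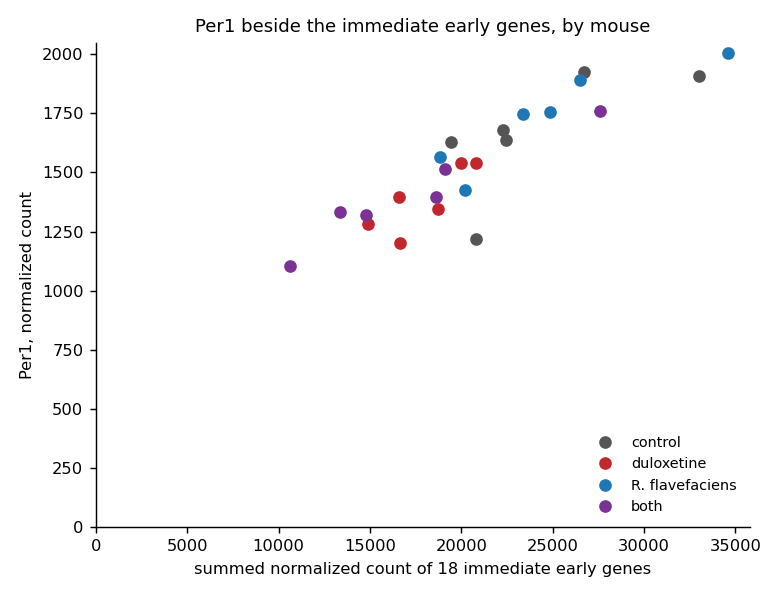
Normalized count of *Per1* (vertical axis) against the summed normalized count of 18 immediate early genes (horizontal axis), 1 point per mouse, both axes from 0. Combined mouse 10_2 is lowest on both axes (1103 and 10609) and *R. flavefaciens* mouse 9_1 highest on both (2005 and 34593).

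Markers were read for the tissue and for its cell types. Excitatory neuron markers (5 of 5 in the table, most abundant *Camk2a*) summed to means of 84020 to 84873 normalized counts in the control and duloxetine groups and 82969 to 85936 in the other groups. Of the markers of the suprachiasmatic nucleus, the master clock of the hypothalamus, *Six6*, *Lhx1*, *Avp*, *Nms* and *Prok2* had no row in the table, and *Vip*, a cortical interneuron gene too, had 367 to 562. Over both arms with limma, none of the markers of astrocytes, oligodendrocytes, microglia, endothelial cells, choroid plexus, striatum, blood or either neuron class passed at adjusted p under 0.05. Microglia markers (6 of 6 in the table, led by *Csf1r*) were lowest in controls, with summed means of 3300 ± 166 in controls, 3650 ± 327 in duloxetine mice, 3673 ± 263 in *R. flavefaciens* mice and 3804 ± 509 in combined mice (SD, n = 6). Against controls 4 of 6 were higher at unadjusted p under 0.05 in the duloxetine group (3.83% of all genes differed), 3 of 6 in the *R. flavefaciens* group (19.6%) and 4 of 6 in the combined group (16.8%). Astrocyte markers (6 of 6 in the table, led by *Slc1a2*) summed to 58899 ± 7233 in *R. flavefaciens* mice and 68466 ± 8226 in combined mice (SD, n = 6), with 2 of 6 higher at unadjusted p under 0.05, where 19.7% of all genes differed. Most of each astrocyte sum was *Slc1a2* alone, with means of 46076 and 55023 in these groups. Means of *Aqp4* and *Gja1* were also higher in combined mice, but those of *Aldh1l1* (724 and 681) and *Gfap* (1060 and 993) were lower. Mouse 9_3 of the *R. flavefaciens* group had the lowest astrocyte sum of all mice, 46348.5, where the rest of its group had 54657 to 66238. Inhibitory neuron markers (6 of 6, led by *Gad1*) summed to 10051 ± 464 in controls, 10004 ± 356 in duloxetine mice, 10927 ± 388 in *R. flavefaciens* mice and 10460 ± 651 in combined mice (SD, n = 6). In the *R. flavefaciens* group against controls 3 of 6 were higher at unadjusted p under 0.05 (19.6% of all genes differed), including *Sst* (log2 fold change 0.34) and *Pvalb* (0.44). In the combined against the *R. flavefaciens* group, which holds 4 of the clock gene calls, 2 of 6 were lower (19.7%), *Sst* (-0.20) and *Vip* (-0.18). Blood markers (5 of 5, led by *Hbb-bs*) summed to 349 ± 65.7 in controls, 462 ± 265 in duloxetine mice, 598 ± 205 in *R. flavefaciens* mice and 633 ± 351 in combined mice (SD, n = 6). Against controls 4 of 5 blood markers were higher at unadjusted p under 0.05 in the *R. flavefaciens* group (19.6%) and 5 of 5 in the combined group (16.8%), and 0 of 5 differed between the combined and the *R. flavefaciens* group or over both arms. Over both arms 2 of 6 microglia and 2 of 6 astrocyte markers were higher at unadjusted p under 0.05, 1 of 6 inhibitory neuron markers was lower, and of 5 endothelial markers 1 was higher and 1 lower (14.9% of all genes differed). The part of these cell types in the clock gene differences was not tested. Mouse 8_4 of the *R. flavefaciens* group stood apart, with 4720 normalized counts of 6 striatal markers where the other mice had 1113 to 2748, and 791 of choroid plexus markers where the others had 25.5 to 152. Without it the clock gene calls were again 4 over both arms and 4 in the combined against the *R. flavefaciens* group, with *Dbp* at -0.40 and -0.59 and *Cry1* at -0.31 and -0.34 (log2 fold changes).

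Within groups the clock genes did not all vary together. With group means removed, the 45 pairs had Pearson's r from -0.67 (*Clock* and *Dbp*) to 0.76 (*Per1* and *Cry2*) with a median of 0.13, 31 above and 14 below 0. Among the most negative pairs were also *Per2* with *Nr1d1* (-0.61), *Cry1* with *Nr1d1* (-0.52) and *Per2* with *Dbp* (-0.47). These values share libraries, depth and normalization and are a description of 24 mice.

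**Figure D4:**
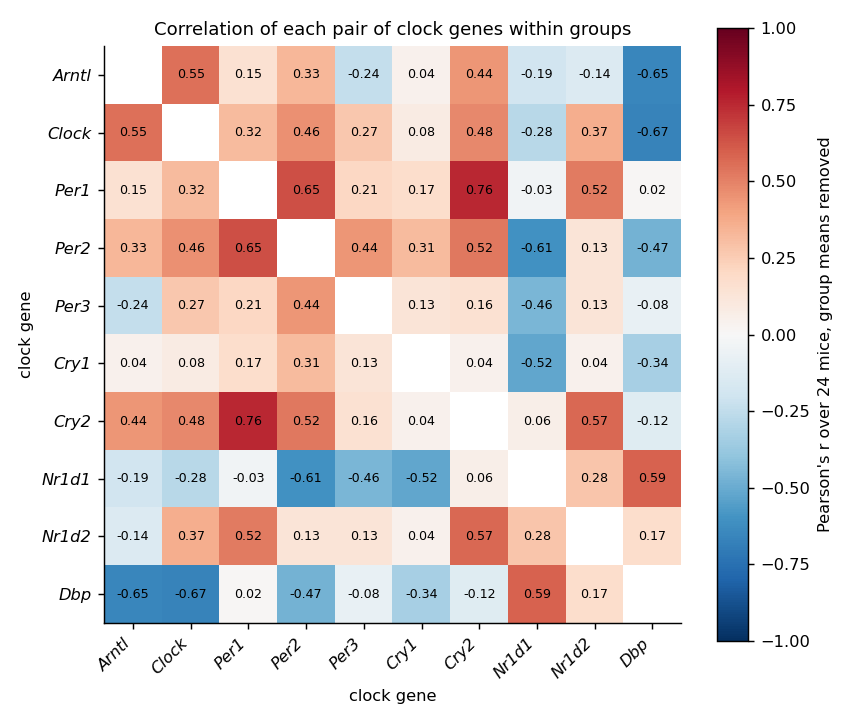
Pearson's r of each pair of clock genes over 24 mice after removing group means, with rows and columns in the same gene order and color from -1 (blue) to 1 (red). *Dbp* is negative with *Arntl* (-0.65) and *Clock* (-0.67) and positive with *Nr1d1* (0.59).

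For 7 pairs picked for their place in the loop, the correlation was tested by permuting mice within groups (100000 permutations). The permutation p values are not adjusted for the 7 pairs. *Arntl* and *Dbp*, which peak at opposite times of day, had r = -0.65 (permutation p = 0.00152, Spearman's rho = -0.65, p = 0.00162, n = 24 mice). It was -0.58 (permutation p = 0.00503) without the 2 mice farthest from the median *Arntl*, 9_1 and 11_3. With *Arntl* as a covariate in limma, *Dbp* had a slope of -0.90 and an adjusted p of 0.0153, as 8.34% of genes did. *Per1* and *Per2*, which share E-box control, had r = 0.65 (permutation p = 0.00101, rho = 0.64, p = 0.00165) and 0.65 without mice 2_2 and 10_2, with an adjusted p of 0.0830 in limma (0.287% of genes passed). *Nr1d1* and *Dbp*, which peak close together, had r = 0.59 (permutation p = 0.00306, rho = 0.57, p = 0.00558). This relation rested on mice 2_2 and 10_2, without which r was 0.38 (permutation p = 0.0772), and limma gave an adjusted p of 0.345, where 0 of 14973 genes passed with *Nr1d1* as covariate. *Clock* and *Arntl* had r = 0.55 (permutation p = 0.0537, rho = 0.50, p = 0.0397) and an adjusted p of 0.0332, but with *Clock* as covariate 23.2% of genes passed. *Arntl* and *Nr1d1* (r = -0.19, permutation p = 0.358, rho = -0.14, p = 0.499), *Per3* and *Dbp* (r = -0.08, p = 0.747, rho = 0.03, p = 0.890) and *Cry1* and *Cry2* (r = 0.04, p = 0.867, rho = 0.01, p = 0.955) showed no relation past the threshold. For *Cry1* and *Cry2* the value was 0.56 when group means were kept.

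**Figure D5:**
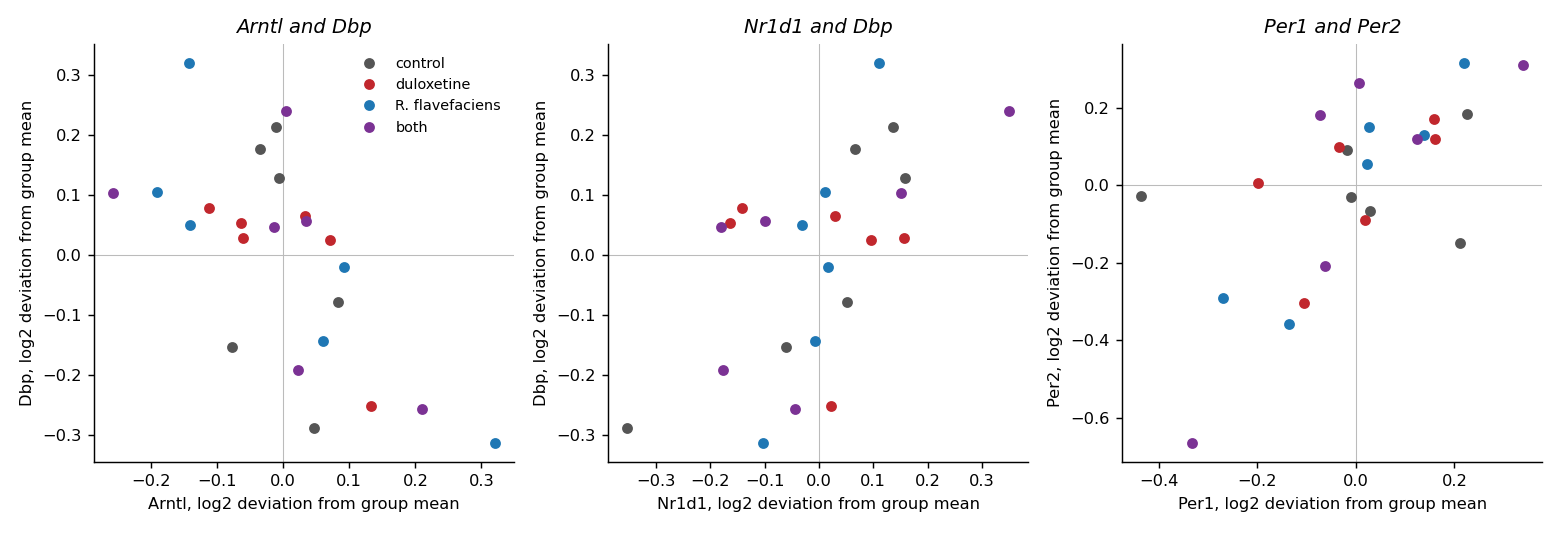
Log2 deviation from the group mean of 1 clock gene (vertical axis) against another (horizontal axis), 1 point per mouse, colored by group, for *Arntl* and *Dbp*, *Nr1d1* and *Dbp*, and *Per1* and *Per2*. Points fall from left to right for *Arntl* and *Dbp* (r = -0.65) and rise for *Per1* and *Per2* (r = 0.65).

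The genes most like each clock gene were taken as the 3 with the highest Pearson's r over the 24 mice, with group means removed, among 14973 genes. For *Per1* all 3 were activity-regulated transcription factor genes, *Egr2* (0.89), *Nr4a3* (0.89) and *Fosl2* (0.86), each one of the 18 immediate early genes above. For *Per2* they were *Irs2* (0.88), an adaptor of the insulin receptor, *Rbm15* (0.88) and *Hspa5* (0.87), a chaperone of the endoplasmic reticulum. *Clock* came with *Hipk3* (0.96), *Trip12* (0.95) and *Lnpep* (0.95), and *Arntl* with *Kcnj12* (0.90), a potassium channel gene, *Cx3cl1* (0.87) and *Gfra2* (0.87). *Cry1* came with the RNA-binding protein genes *Hnrnpa2b1* (0.79) and *Tardbp* (0.74) and with *Sclt1* (0.72), and *Cry2* with *Bcorl1* (0.87), *Stau1* (0.85) and *Tmem121b* (0.82). *Dbp* came with *Pccb* (0.83), *Bmyc* (0.81) and *Eml2* (0.80), *Nr1d1* with *Anxa6* (0.79), *Zfand4* (0.76) and *Espnl* (0.76), *Nr1d2* with *Itgb3* (0.80), *Arhgef3* (0.74) and *Mis12* (0.73), and *Per3* with *Gm38190* (0.88) and *Nktr* (0.79).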

How the data were processed

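Polyadenylated RNA of 24 mPFC samples was made into libraries with a kit that does not mark strand and sequenced on an Illumina instrument. According to the submitters' processing notes, the authors used TopHat2 2.1.0, Bowtie2 2.2.6 and DESeq2 1.18.1. The notes name mm9, but the methods name GRCm38 and gene positions in the table matched GENCODE vM21 (GRCm38) for 14253 of 15438 genes found there, including all 10 clock genes. The authors deposited DESeq2-normalized counts, a signal per gene already divided by library size factors. The read counter and its strand setting are not given in the sources used here.

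The 10 clock genes and the other gene lists were chosen with earlier results of these data known. Log2(normalized count + 1) was fitted with limma 3.58.1 (trended prior, all 4 groups, two-sided, Benjamini-Hochberg over 14974 genes with a mean of at least 10, threshold 0.05), so fold changes are on that scale. In data simulated for the duloxetine against control comparison, 14974 genes, the fit called 78% of genes changed by 0.5 and 97% of those changed by 1 on the log2 scale. The simulation gave every gene the same spread between mice beyond counting noise and held no smaller changes. Clock gene log2 fold changes in this comparison lay between -0.28 and 0.07, so these shares do not apply to them. Exact permutation tests ran over 924 groupings of 12 mice. Alternatives were a pseudocount of 0.1, no minimum, a minimum mean of 50, only the groups compared, quantile and 75th percentile scaling, the first label number as a random block, leaving out each mouse, and edgeR 4.0.16 and DESeq2 1.42.0 on recovered reads (value divided by the library's step, tolerance 0.0051). Fold changes are given for clock genes with an unadjusted p under 0.05, and for all 10 over both arms, where those of *Arntl*, *Clock*, *Per3* and *Nr1d1* were added outside that rule. In other lists the 2 genes with the smallest p are named, and *Hlf*, *Npas2* and the overlapping genes were added for their role or position. Of the genes most like each clock gene, 1 is not reported here. The labels name no batch.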

Additional observations from a re-analysis of the deposited data

Results flagged for a closer look

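Each of the 40 sets of 6 values (10 clock genes in 4 groups) was checked for a mouse far from the other 5, and 2 stood out. About 1 in 20 such sets would by chance. *Clock* in mouse 12_4 of the combined group was at 1848.49 normalized counts, above the other 5 mice at 1537 to 1642. *Dbp* in mouse 5_4 of the duloxetine group was at 481.69 normalized counts, below the other 5 at 584 to 606. No explanation of either was tested.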

How the results depend on the processing

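Over both arms the 4 clock genes called became 5 with a minimum mean of 50, the random block or DESeq2, which added *Per1*, and 3 with quantile or 75th percentile scaling, which lost *Nr1d2*. In the combined against the *R. flavefaciens* group the 4 became 5 with the block or DESeq2, which added *Nr1d2*, and 0 when only the groups compared were fitted, where 0 of all genes were called against 334. In the combined against the control group the same restriction raised the calls among all genes from 15 to 196. The cause was not tested. With DESeq2 on recovered reads the count went from 0 to 1 for *R. flavefaciens* against control and from 0 to 2 for combined against control, where DESeq2 called 497 and 217 of all genes. With 1 mouse left out, counts at adjusted p under 0.05 ran from 1 to 5 (combined against *R. flavefaciens*), 3 to 5 (duloxetine over both arms), 0 to 1 (combined against control) and 0 to 1 (*R. flavefaciens* against control), and counts at unadjusted p under 0.05 from 2 to 5 (duloxetine against control), 0 to 1 (combined against duloxetine) and 1 to 3 (interaction). No fold change over both arms of the 10 clock genes, nor any other clock gene fold change with an unadjusted p under 0.05, turned its sign under the alternatives run. Small ones over both arms moved in size with 1 mouse left out. *Clock* ran from 0.0103 to 0.0931, *Per3* from -0.0864 to -0.041 and *Nr1d1* from -0.1025 to -0.0491. With quantile scaling *Tef* no longer passed (adjusted p = 0.0568 by limma). *Ddit4* passed over both arms with a minimum mean of 50, 75th percentile scaling, the block, edgeR and DESeq2, and *Nfkbia* with DESeq2 (the alternatives for these list genes were chosen after seeing the data). Mice with the same first label number all belong to the same group, so the block fit compares no groups within a number. The block's estimated correlation was -0.0451, a single value for all genes, and the calls it added depend on this estimate. Why the block added them was not tested. For all genes, calls in the combined against the *R. flavefaciens* group were 533 with the random block and 610 with DESeq2, those for duloxetine over both arms were 154, 255 with the block and 317 with DESeq2, and those for *R. flavefaciens* against control were 4, 221 and 497. With 75th percentile scaling, 1452 genes were higher and 655 lower at unadjusted p under 0.05 over both arms, against 1114 and 1121, and the median of all genes moved by 0.02.

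The correlation of *Arntl* and *Nr1d1* was 0.0155 without the 2 mice farthest from the median, and that of *Nr1d1* and *Dbp* 0.382. *Per3* and *Dbp* gave 0.0885 with group means kept, 0.0694 without the 2 farthest mice and -0.145 to 0.130 with 1 mouse left out. *Clock* and *Arntl* gave 0.453 with group means kept (p = 0.0273, permutation test), 0.621 without the 2 farthest mice and 0.452 to 0.624 with 1 left out. *Cry1* and *Cry2* gave -0.0665 with 75th percentile scaling, 0.564 with group means kept, -0.189 without the 2 farthest mice and -0.0819 to 0.188 with 1 left out. The causes were not tested. No paired analysis was possible because the groups share no replicate numbers. At 12811413 or more reads per mouse the clock genes each had a mean of at least 272 normalized counts in every group, and no call rests on genes of few reads.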
